A study of Mus musculus with 32 samples.

Results

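Lgr4, Lgr5, Fzd1, Fzd2, Sfrp1, Sfrp2, Dkk2, Dkk3 and Axin2 are 9 genes of the Wnt pathway: receptors, secreted modulators and 1 target gene. They were chosen by symbol, with earlier results of these data known. All 20 probe sets that the array annotation assigns to them were taken, out of 45265 probe sets and 18193 named genes. Of the 20, 16 probe sets of 8 genes passed the filter on low values. The RNA was that of primary MEFs at early passage (mouse embryonic fibroblasts, grown directly from embryos), and each RNA extract was hybridised to 2 Affymetrix array types, called array A and array B here. The groups were Oct-1 mutant irradiated, Oct-1 mutant unirradiated, wild type irradiated and wild type unirradiated, with 4 replicates each, 16 extracts and 32 arrays in all. The gene Pou2f1 encodes Oct-1, a transcription factor with a POU domain. The sources used here do not give its allele, the radiation dose, the time after irradiation, or whether replicates were separate embryos or cultures. Hence the p-values measure the spread between these samples, which may be technical.

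Wnt proteins bind Frizzled receptors on the cell surface and can thereby stabilise beta-catenin, which activates target genes together with TCF/LEF factors. Lgr4 and Lgr5 bind R-spondins, secreted proteins that raise the number of Frizzled receptors on the membrane by restraining the ubiquitin ligases that remove them, and Lgr5 marks stem cells in the intestine and hair follicle. Secreted Frizzled-related proteins can bind Wnts outside the cell, Dickkopf proteins of the Dkk1 and Dkk2 type bind the coreceptors Lrp5 and Lrp6, and Axin2 is a target of the pathway that scaffolds the destruction of beta-catenin.

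Oct-1 binds the octamer, whose letters are ATGCAAAT. RefSeq promoter sequences (mouse build GRCm38.p6) were at hand for 5 of the 9 genes: Lgr4, Sfrp2, Dkk2, Fzd1 and Axin2. Both strands of the 250 bases before the start of each gene were searched for the octamer, and Lgr4 and Sfrp2 held it, while 1.61% of 27025 promoters did. These 2 windows are printed because they hold the motif of the mutated factor. They lie at chr2:109917397-109917646 (plus strand) for Lgr4 and chr3:83766071-83766320 (plus strand) for Sfrp2, and capitals mark the octamer, which reads on the opposite strand to the gene.
Lgr4: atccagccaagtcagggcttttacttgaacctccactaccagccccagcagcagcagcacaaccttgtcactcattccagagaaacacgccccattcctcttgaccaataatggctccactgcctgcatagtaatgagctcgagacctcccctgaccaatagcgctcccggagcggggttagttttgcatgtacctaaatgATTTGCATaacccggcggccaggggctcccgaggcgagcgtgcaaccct
Sfrp2: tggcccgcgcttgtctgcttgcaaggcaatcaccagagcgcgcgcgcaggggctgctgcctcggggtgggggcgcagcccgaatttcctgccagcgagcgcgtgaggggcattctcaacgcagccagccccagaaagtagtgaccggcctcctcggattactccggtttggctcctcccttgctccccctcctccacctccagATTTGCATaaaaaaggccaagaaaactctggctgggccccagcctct
The octamer spans bases 49 to 42 before the start of Lgr4 and bases 47 to 40 before that of Sfrp2. A match describes these letters only and says nothing of binding, and all motifs were searched after the values were known. The TCF/LEF core CTTTGA was found in the Fzd1 window (14.1% of promoters hold it). The letters TTTGAA of the cell cycle homology region, which can share bases with CTTTGA, were in 0 of the 5 windows (16.3% of promoters). Further searches found CCAAT in the Lgr4 and Dkk2 windows (34.5% of promoters), the GC box GGGCGG in those of Dkk2 and Axin2 (32.9%) and TATAAA in those of Dkk2 and Fzd1 (13% of promoters). The genotype comparisons of both printed genes are given with their values below.

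Values were deposited on the log2 scale, 1 per probe set and array, with medians of 6.16 to 6.28 over the A arrays and 3.67 to 3.78 over the B arrays. Within groups, replicates 1 and 2 have title numbers in 1 run and replicates 3 and 4 in another, called the first and second number run. Deviations from group means followed this run, with 61.8% of their variance on the first component on array A and 49.6% on array B. A probe set was called when its adjusted p from limma was under 0.05. This linear model was fitted, and its p-values adjusted by the Benjamini-Hochberg method, on each array type by itself, over 13576 probe sets of array A and 13507 of array B. Shares of all probe sets are given over both arrays, 27083 in all. Same-numbered replicates deviated together, about as much as differently numbered ones of the same run. Numbered pairs below share a replicate number, and the labels do not say that these numbers pair samples. Values with the replicate number as a block are given where the block changes a call of the 9 genes. For other pathway genes they are given for Wnt4 and Gpc3 only, though the block changed further calls. The p53 targets Cdkn1a, Mdm2, Pmaip1, Btg2 and Sesn2 rose after irradiation in both genotypes, by 0.7 to 2.43 on the log2 scale. Ccng1, also checked, did not pass in mutant cells (0.3, adjusted p = 0.331) or in wild type cells (0.53, adjusted p = 0.0692). Averaged over genotypes Ccng1 passed (0.42, adjusted p = 0.018). No probe set is annotated to Pou2f1, so the mutated gene itself was not analysed here. All 16 fibroblast markers listed passed the filter.

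Lgr5 showed the largest genotype difference among these genes. Its probe set 1450988_at on array A had log2 values of 7.8, 7.81, 7.63 and 8.1 in irradiated mutant cells and 5.6, 6.44, 5.81 and 5.57 in irradiated wild type cells (replicates 1 to 4). Unirradiated mutant cells had 8.43, 8.54, 8.44 and 8.41, and unirradiated wild type cells 6.66, 6.63, 6.25 and 6.09. Every mutant sample was above every wild type sample, with or without irradiation. Lgr5 was 3.95-fold higher in irradiated mutant cells (log2 1.98, SE 0.18, adjusted p = 4.79e-06 by limma) and 4.14-fold higher in unirradiated mutant cells (log2 2.05, SE 0.18, adjusted p = 3.72e-06). The averaged difference of 2.02 became 1.82 in the first number run and 2.22 in the second.

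Lgr5 also fell after irradiation when the genotypes were averaged, by 0.59 on the log2 scale (SE 0.13, adjusted p = 0.0059). In mutant cells the irradiated samples lay between 7.63 and 8.1 and did not overlap the unirradiated ones, between 8.41 and 8.54. In wild type cells the irradiated samples spanned 5.57 to 6.44 and overlapped the unirradiated ones, at 6.09 to 6.66. Within each genotype the difference did not pass: it was -0.62 in mutant cells (adjusted p = 0.0613; adjusted p = 0.0153 with the replicate block) and -0.55 in wild type cells (adjusted p = 0.11; adjusted p = 0.0322 with the block). Without wild type irradiated replicate 2, the highest of its group, the wild type difference was -0.75 (adjusted p = 0.00886). This was the 1 call in 16 fits that each left out 1 extract, with adjusted p up to 0.282. Lgr5 in irradiated mutant cells, at 7.63 or more, also lay above Lgr5 in unirradiated wild type cells, at 6.66 or less. The other Lgr5 probe set, 1444519_at on array B, lay below the filter, between 3.08 and 3.26 in all 16 samples.

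Lgr4, the more widely expressed of the 2 receptors, fell after irradiation in both genotypes. Probe set 1433891_at on array B had log2 values of 9.51, 9.53, 9.51 and 9.52 in irradiated mutant cells against 10.15, 10.2, 10.07 and 9.98 in unirradiated ones. Wild type cells had 9.22, 9.44, 9.31 and 9.55 after irradiation against 9.9, 9.83, 9.79 and 9.92 without it. Irradiated and unirradiated samples did not overlap in either genotype. Lgr4 fell by 0.58 in mutant cells (SE 0.07, adjusted p = 0.000956) and by 0.48 in wild type cells (SE 0.07, adjusted p = 0.0053). Within the first and second number run the differences were -0.66 and -0.51 in mutant cells (adjusted p = 0.0451 and 0.282). In wild type cells they were -0.53 and -0.43 (adjusted p = 0.0665 and 0.441). The wild type call was also lost when only the groups compared entered the fit (adjusted p = 0.0691).

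Lgr4, with the octamer in its promoter window, did not pass between genotypes. The averaged difference was 0.19 (SE 0.05, 95% interval 0.08 to 0.3, adjusted p = 0.0888). It was 0.24 in unirradiated cells (adjusted p = 0.275), where all 4 mutant values lay above the wild type ones, and 0.14 in irradiated cells (adjusted p = 0.538), where they overlapped. The averaged difference passed with the number run block (adjusted p = 0.0422) and did not with the replicate block (adjusted p = 0.0506). It passed in 1 of 16 fits that each left out 1 extract, with adjusted p up to 0.176. That fit was the one without wild type irradiated replicate 4 (0.22, adjusted p = 0.0414). The second Lgr4 probe set, 1453765_at on array B, was below the filter at 2.39 to 2.47.

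**Figure D1:**
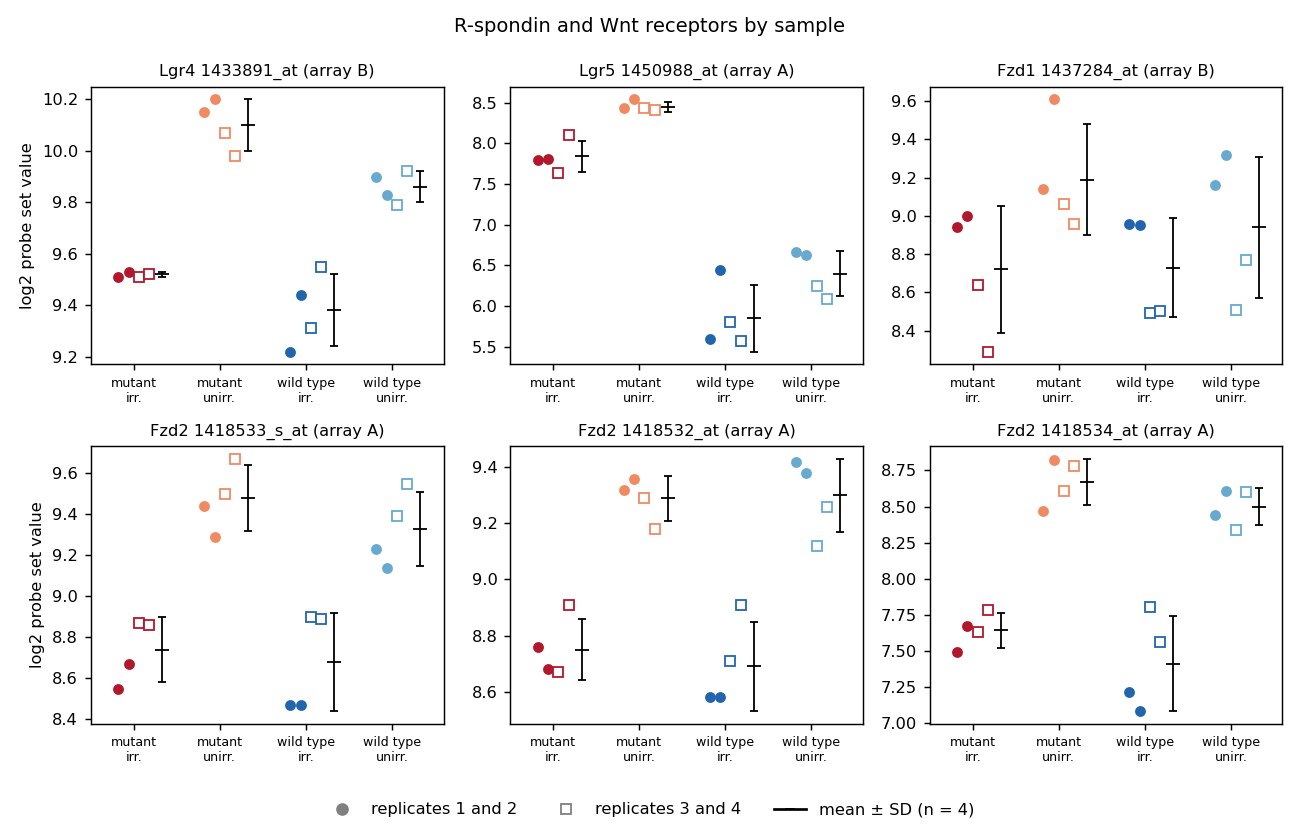
Log2 probe set values (vertical axes, ranges differ by panel) of Lgr4, Lgr5, Fzd1 and the 3 Fzd2 probe sets in the 4 groups (irr., irradiated; unirr., unirradiated). Filled circles are replicates 1 and 2, open squares replicates 3 and 4, and black bars the mean ± SD of 4 replicates. Lgr5 lies between 7.63 and 8.54 in mutant cells and between 5.57 and 6.66 in wild type cells, while Lgr4 and Fzd2 separate by irradiation.

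Fzd2 encodes a Frizzled receptor, and all 3 of its probe sets fell after irradiation in both genotypes. Probe set 1418534_at on array A had log2 values of 7.49, 7.67, 7.63 and 7.78 in irradiated mutant cells against 8.47, 8.82, 8.61 and 8.78 in unirradiated ones. Wild type cells had 7.21, 7.08, 7.8 and 7.56 after irradiation against 8.44, 8.61, 8.34 and 8.6 without it. The irradiated and unirradiated values did not overlap in either genotype for this probe set. Its level fell to 0.49 of the unirradiated level in mutant cells (log2 -1.03, SE 0.14, adjusted p = 0.000255) and to 0.47 in wild type cells (log2 -1.09, SE 0.14, adjusted p = 0.000154).

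The other Fzd2 probe sets moved the same way. For 1418533_s_at the irradiated samples lay at 8.55 to 8.87 and the unirradiated ones at 9.29 to 9.67 in mutant cells, against 8.47 to 8.9 and 9.14 to 9.55 in wild type cells. It fell by 0.74 in mutant cells (adjusted p = 0.00258) and by 0.65 in wild type cells (adjusted p = 0.00747). For 1418532_at the irradiated and unirradiated ranges were 8.67 to 8.91 and 9.18 to 9.36 in mutant cells, and 8.58 to 8.91 and 9.12 to 9.42 in wild type cells. It fell by 0.53 in mutant cells (adjusted p = 0.00222) and by 0.6 in wild type cells (adjusted p = 0.000783). Irradiated samples were below unirradiated ones in each of these 4 comparisons. The 3 probe sets cite 1 source sequence and are not independent measurements. Averaged over genotypes, within the first and second number run, the differences were -1.22 and -0.89 for 1418534_at, -0.73 and -0.65 for 1418533_s_at, and -0.72 and -0.42 for 1418532_at. Between genotypes, Fzd2 did not pass, with averaged differences of 0.2, 0.1 and 0.03 and 95% intervals that together ran from -0.11 to 0.41.

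Fzd1, another Frizzled receptor, was called in 0 comparisons by limma, and had an unadjusted p under 0.05 in the 2 given below. Probe set 1437284_at on array B had log2 values of 8.94, 9, 8.64 and 8.29 in irradiated mutant cells against 9.14, 9.61, 9.06 and 8.96 in unirradiated ones. Wild type cells had 8.96, 8.95, 8.49 and 8.5 after irradiation against 9.16, 9.32, 8.51 and 8.77 without it. Irradiated and unirradiated samples overlapped, and replicates 1 and 2 were higher than 3 and 4 in every group. In all 4 numbered pairs of either genotype the irradiated sample was the lower. The averaged irradiation difference was -0.34 (SE 0.15, unadjusted p = 0.0342, adjusted p = 0.408; adjusted p = 0.0154 with the replicate block), at -0.35 and -0.34 within the 2 number runs. In mutant cells it was -0.48 (adjusted p = 0.632; adjusted p = 0.0375 with the block) and in wild type cells -0.21 (adjusted p = 1). The second Fzd1 probe set, 1422985_at on array A, had an averaged irradiation difference of -0.14 (adjusted p = 0.765), with -0.44 in the first number run against 0.16 in the second. The first number run was higher by 0.73 in this probe set and by 0.49 in 1437284_at.

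Sfrp1 encodes a secreted protein that can bind Wnts. It was higher in mutant cells in 4 of its 5 probe sets. Probe set 1428136_at on array B had log2 values of 8.46, 8.91, 9.06 and 8.69 in irradiated mutant cells and 7.71, 7.56, 7.34 and 7.59 in irradiated wild type cells. Unirradiated mutant cells had 8.39, 8.68, 8.95 and 8.83, and unirradiated wild type cells 7.3, 7.68, 7.57 and 7.4. Every mutant sample exceeded every wild type sample. The difference was 2.35-fold in irradiated cells (log2 1.23, SE 0.15, adjusted p = 0.000947) and 2.34-fold in unirradiated cells (log2 1.22, SE 0.15, adjusted p = 0.000811).

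On array A, Sfrp1 probe set 1448395_at had 8.23, 8.06, 8.1 and 7.95 in irradiated mutant cells and 7.08, 7.37, 6.62 and 6.28 in irradiated wild type cells. Unirradiated mutant cells had 8.15, 8.06, 8.12 and 8.43, and unirradiated wild type cells 7.09, 7.15, 6.94 and 6.63. Here too the lowest mutant value, 7.95, was above the highest wild type value, 7.37. The differences were 1.25 in irradiated cells (SE 0.19, adjusted p = 0.000821) and 1.24 in unirradiated cells (SE 0.19, adjusted p = 0.000881). For 1460187_at mutant samples ranged from 6.92 to 7.5 and wild type samples from 5.64 to 6.41, with a difference of 1.1 in irradiated cells (adjusted p = 0.00137) and 1.1 in unirradiated cells (adjusted p = 0.00121). For 1416594_at the difference was 1.01 in irradiated cells (SE 0.19, adjusted p = 0.00636). In unirradiated cells it was 0.7 (SE 0.19, adjusted p = 0.0573; adjusted p = 0.00114 with the replicate block), with mutant samples at 7.9 to 8.09 and wild type samples at 6.91 to 7.62.

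The fifth Sfrp1 probe set stood apart from the other 4. In 1438620_x_at irradiated mutant samples spanned 6.42 to 7.27 and irradiated wild type samples 6.36 to 6.87, and unirradiated ones spanned 6.4 to 7.39 and 6.64 to 7.08. The genotypes overlapped, and the averaged difference was 0.19 (95% interval -0.13 to 0.5, adjusted p = 0.509). The averaged differences of the other 4 were 1.23, 1.24, 1.1 and 0.86, and their intervals all lay above 0.5. Of these, 3 probe sets cite 1 source sequence, and the array B probe set cites another. Within the first number run the 4 averaged differences ranged from 0.69 to 1.05, and within the second from 1.03 to 1.53. Irradiation changed Sfrp1 in 0 of 5 probe sets in either genotype by limma (0 also at an unadjusted p under 0.05), with differences from -0.15 to 0.11 in mutant cells and from -0.22 to 0.06 in wild type cells.

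**Figure D2:**
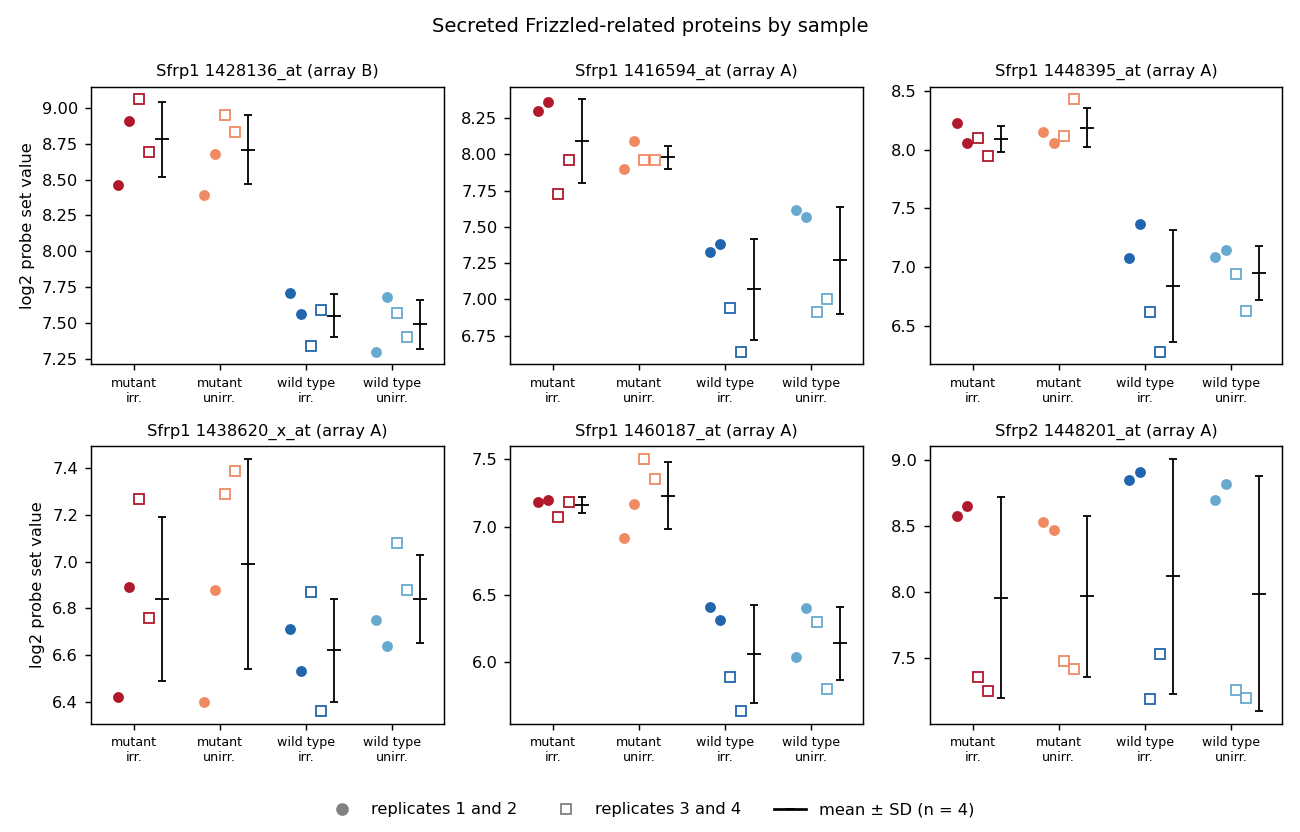
Log2 probe set values (vertical axes, ranges differ by panel) of the 5 Sfrp1 probe sets and the Sfrp2 probe set in the 4 groups, with symbols and bars as in the plot of receptors. Mutant values lie above wild type values in all Sfrp1 panels except 1438620_x_at, and Sfrp2 separates replicates 1 and 2, at 8.47 to 8.91, from replicates 3 and 4, at 7.19 to 7.53, in all groups.

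Sfrp2, a relative of Sfrp1, separated the samples by number run, and neither genotype nor irradiation passed. Its probe set on array A had log2 values of 8.58, 8.65, 7.36 and 7.25 in irradiated mutant cells against 8.53, 8.47, 7.48 and 7.42 in unirradiated ones. Wild type cells had 8.85, 8.91, 7.19 and 7.53 after irradiation against 8.7, 8.82, 7.26 and 7.2 without it. The first number run was higher by 1.35 on the log2 scale, and its 8 values did not overlap the 8 of the second. The averaged genotype difference was -0.09 (SE 0.35, 95% interval -0.84 to 0.66, adjusted p = 0.919), at -0.26 in the first number run and 0.08 in the second. The averaged irradiation difference was 0.06 (adjusted p = 0.95), at 0.12 and 0 within the runs. The block changed no call of Sfrp2, which like Lgr4 holds the octamer in the promoter window printed above.

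Dkk2, a secreted ligand of the coreceptor Lrp6, was lower in mutant cells when both irradiation states were averaged. Its probe set on array A had log2 values of 6.43, 6.59, 7.09 and 6.84 in irradiated mutant cells and 6.95, 6.84, 7.35 and 7.84 in irradiated wild type cells. Unirradiated mutant cells had 6.98, 7.05, 7.15 and 7.1, and unirradiated wild type cells 7.44, 7.59, 7.7 and 7.54. The unirradiated groups did not overlap and the irradiated ones did, and the mutant sample was the lower in all 8 numbered pairs. The averaged difference was -0.51 (SE 0.13, adjusted p = 0.0193), at -0.45 and -0.57 within the number runs. Taken alone, it was -0.51 in irradiated cells (adjusted p = 0.172; adjusted p = 0.0269 with the replicate block) and -0.5 in unirradiated cells (adjusted p = 0.181; adjusted p = 0.0284 with the block). Without wild type irradiated replicate 4, at 7.84 the highest of all Dkk2 values, the difference in irradiated cells was -0.31 (adjusted p = 0.38).

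Irradiation gave Dkk2 an averaged difference of -0.33 (SE 0.13, adjusted p = 0.118; adjusted p = 0.0238 with the block). In the first number run alone it came to -0.56, and in the second to -0.09. Without wild type irradiated replicate 4 the averaged irradiation difference was -0.42 (adjusted p = 0.0151). That was the 1 call in 16 fits that each left out 1 extract, with adjusted p up to 0.21.

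Dkk3, a divergent Dickkopf family member, was higher in mutant cells in 1 of its 2 probe sets. Probe set 1448669_at on array A had log2 values of 8.33, 8.73, 8.77 and 8.58 in irradiated mutant cells and 8.2, 8.34, 8.08 and 8.07 in irradiated wild type cells. Unirradiated mutant cells had 8.26, 8.44, 8.6 and 8.54, and unirradiated wild type cells 8.21, 8.3, 8.17 and 8.26. Mutant replicate 1 lay within the wild type range in both states, and the other mutant samples lay above that range. The difference was 0.43 in irradiated cells (SE 0.1, adjusted p = 0.0266), 0.22 in unirradiated cells (SE 0.1, adjusted p = 0.334) and 0.33 averaged (SE 0.07, adjusted p = 0.00778). Within the first and second number run the averaged difference was 0.18 and 0.48, and that in irradiated cells 0.27 and 0.6. The call in irradiated cells was lost when only the groups compared entered the fit (adjusted p = 0.109) and on leaving out any 1 of 6 irradiated extracts (adjusted p up to 0.0862): mutant replicates 2, 3 or 4 or wild type replicates 1, 3 or 4. The difference between the irradiation effects of the genotypes was 0.21 (SE 0.15, 95% interval -0.1 to 0.52). The second Dkk3 probe set, 1417312_at, had an averaged genotype difference of 0.22 (SE 0.15, adjusted p = 0.424). Its samples spanned 8.13 to 8.77 in mutant cells and 7.71 to 8.61 in wild type cells. Both probe sets cite 1 source sequence.

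**Figure D3:**
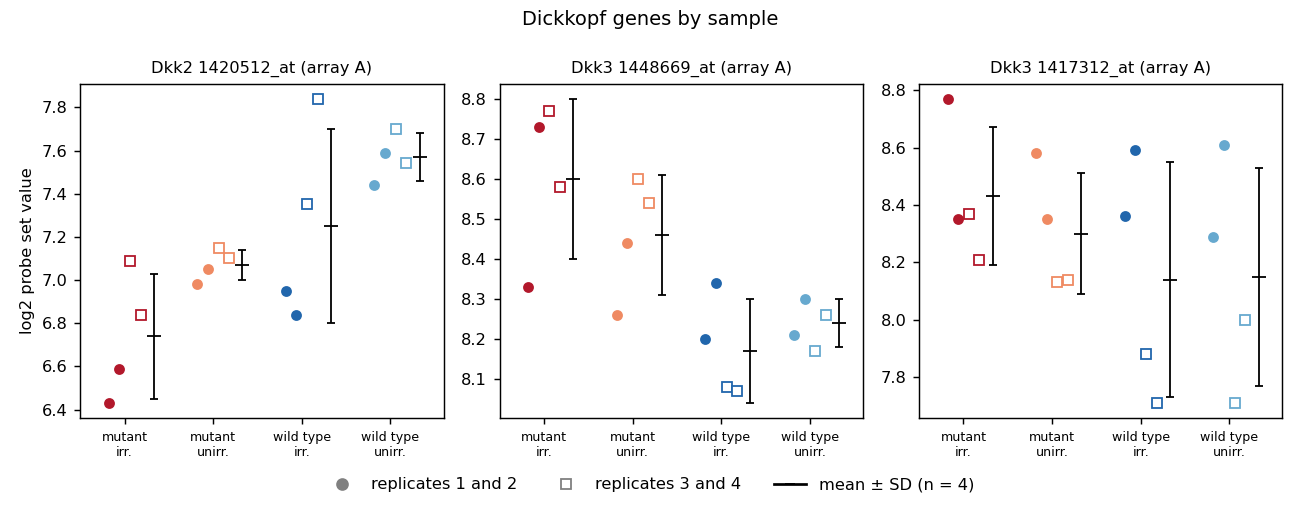
Log2 probe set values (vertical axes, ranges differ by panel) of Dkk2 and the 2 Dkk3 probe sets on array A in the 4 groups, with symbols and bars as in the plot of receptors. Dkk2 averaged 6.74 and 7.07 in irradiated and unirradiated mutant cells against 7.25 and 7.57 in wild type cells, and Dkk3 1448669_at averaged 8.6 and 8.46 against 8.17 and 8.24.

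Axin2, widely used as a readout of beta-catenin signalling, lay below the filter in both its probe sets. Probe set 1436845_at had log2 values of 2.53 to 2.79 in irradiated and 2.55 to 2.78 in unirradiated mutant cells, against 2.61 to 2.66 and 2.62 to 2.67 in wild type cells. Probe set 1421341_at ranged from 2.17 to 2.39 and from 2.11 to 2.26 in mutant cells, against 2.18 to 2.22 and 2.13 to 2.24 in wild type cells. The groups overlapped in both, and a change of Axin2 could not be read from values this low on array A, where the filter required a mean of 4.97. With the 2 probe sets of Lgr4 and Lgr5 on array B, these were the 4 probe sets that did not pass, and the 16 that did had every single value at or above 5.53.

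Irradiation called 0 of the 16 probe sets higher and 4 lower in mutant cells, where 1.65% of all probe sets were called higher and 1.02% lower. The same count, 0 higher and 4 lower, was found in wild type cells (1.47% and 0.834% of all). In each genotype these were the Lgr4 probe set and the 3 of Fzd2. Averaged over genotypes, Lgr5 joined them, giving 0 higher and 5 lower (4.5% and 3.01% of all). The median difference of the 16 was -0.16, against 0.01 over all probe sets. At an unadjusted p under 0.05 the averaged counts were 0 higher and 7 lower, against 10.9% and 7.39% of all probe sets. Because the genes were chosen with earlier results of these data known, these shares are not an independent comparison. The replicate block called more probe sets over the whole arrays in both genotypes and averaged over them. Averaged over genotypes it called 7 of the 16 and 14.9% of all probe sets, against 7.51% of all without the block. In mutant cells it called 6, adding Lgr5 and Fzd1 1437284_at, and 7.15% of all (2.67% without the block). In wild type cells it called 5, adding Lgr5, and 6.11% of all (2.31% without the block).

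Genotype called 6 of 16 higher and 0 lower in irradiated cells, where 1.41% of all probe sets were higher and 0.672% lower: Lgr5, 4 of Sfrp1 and 1 of Dkk3. In unirradiated cells 4 were higher and 0 lower (1.45% and 0.702% of all): Lgr5 and 3 of Sfrp1. At an unadjusted p under 0.05, Dkk2 was the 1 probe set lower in each state (4.8% of all in irradiated and 5.11% in unirradiated cells). Averaged over irradiation, 6 were higher and Dkk2 was lower (3.77% and 2.48% of all), with a median of 0.2 against 0.01 over all probe sets. Probe sets of 1 gene share RNA and often sequence, so Sfrp1 carries most of these counts. Here too the genes were chosen with earlier results known, so the shares of all probe sets are not an independent comparison. With the replicate block 7 were called in irradiated cells, as were 6.02% of all probe sets (2.09% without the block), and 6 in unirradiated cells, as were 6.42% of all (2.16% without it).

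The irradiation effect did not pass as different between genotypes in any of the 16 probe sets by limma, nor in any probe set at all (0% called). Over all probe sets 394 had an unadjusted p under 0.05 for this difference (0.886% higher and 0.569% lower). Of the 16, 0 did, which at shares this small does not set them apart. For Lgr4 the difference, mutant minus wild type, was -0.1 (95% interval -0.33 to 0.12), for Lgr5 -0.07 (-0.6 to 0.47), and for the Fzd2 probe set 1418534_at 0.06 (-0.35 to 0.47). The interval of Lgr5 still includes a difference as large as its averaged irradiation effect of -0.59.

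**Figure D4:**
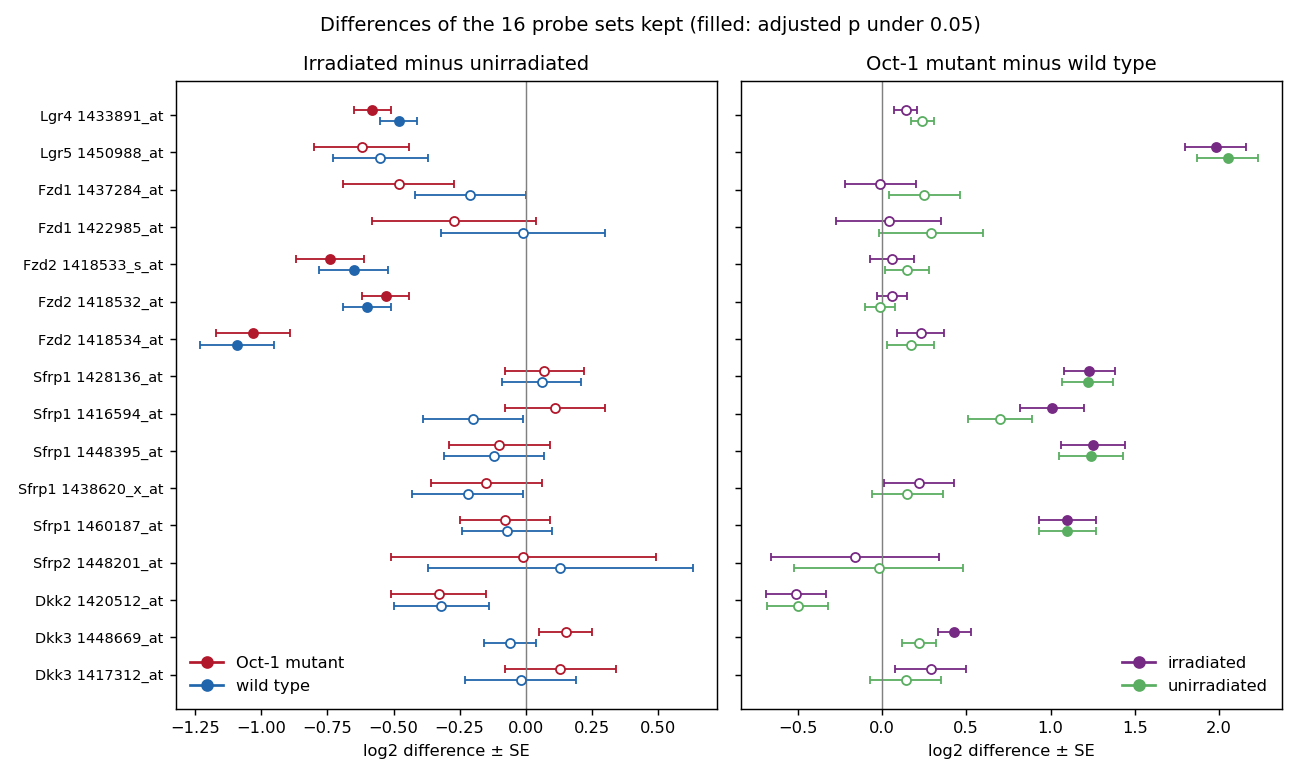
Log2 differences ± SE (horizontal axes) of the 16 probe sets that passed the filter (rows). The left panel shows irradiated minus unirradiated in mutant and wild type cells, and the right panel Oct-1 mutant minus wild type in irradiated and unirradiated cells; filled points had an adjusted p under 0.05 by limma. Lgr4 and Fzd2 are filled on the left, and Lgr5 and Sfrp1 reach 2.05 and 1.25 on the right.

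Markers of cell types were read beside these differences. Of the 16 fibroblast markers, Dcn, Lum, Pdgfra and Thy1 were higher in mutant cells and 0 were lower, averaged over irradiation. Of all probe sets, 3.77% were called higher and 2.48% lower in this comparison. The summed linear level of the list ran from 127775 to 164060 in irradiated and from 127926 to 171620 in unirradiated mutant cells, against 122072 to 136270 and 125316 to 144571 in wild type cells. Prrx1, Pdgfra, Twist1 and Pdgfrb fell after irradiation and 0 rose, averaged over genotypes (3.01% of all probe sets were called lower and 4.5% higher). Of lists for other cell types, Krt18 of 9 epithelial markers was higher in mutant cells, and Stmn2 (neural), Col2a1 (cartilage) and Fabp4 (adipocyte) were lower, while Pparg (adipocyte) fell after irradiation. These calls come from the same averaged comparisons, so the same shares of all probe sets apply. Of the 8 cartilage and bone markers, 6 were annotated on the arrays. The summed level of this list was 175 to 220.1 in irradiated and 201 to 223 in unirradiated mutant cells. In wild type cells it was 242 to 351 and 238 to 308. The sums of the epithelial, neural and adipocyte lists overlapped between genotypes in both irradiation states. Of the annotated markers, the filter was passed by 3 of 9 macrophage and blood, 1 of 8 endothelial and 4 of 9 epithelial markers. It was also passed by 7 of 9 neural and glial, 2 of 8 skeletal muscle, 2 of 6 cartilage and bone, and 4 of 5 adipocyte markers. Their part in the differences of Lgr5, Sfrp1, Dkk2 and Dkk3 was not tested. In bulk RNA, fewer cells of a type and less RNA per cell cannot be told apart.

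The rest of the pathway was read from lists of 101 further genes, also chosen with earlier results of these data known. Of them 71 passed the filter, each represented by 1 probe set. Of these, Dkk1 and Znrf3 stand in 2 of the 5 lists and are counted in both below. Averaged over genotypes, irradiation called 6 of the 71 higher and 6 lower (4.5% and 3.01% of all probe sets), with a list median of -0.03 against 0.01 over all probe sets. Averaged over irradiation, 9 were higher and 2 lower in mutant cells (3.77% and 2.48% of all), with a median of 0.04 against 0.01. The replicate block called 20 of the 71 here, and 13.9% of all probe sets. The difference of irradiation effects called 0 of 71 by limma (0% of all probe sets). At an unadjusted p under 0.05, 1 was higher and 1 lower (0.886% and 0.569% of all).

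Among R-spondins, the ligands of Lgr4 and Lgr5, Rspo2 was lower in mutant cells and fell after irradiation. It had log2 values of 6.41, 6.72, 6.62 and 6.69 in irradiated and 7.47, 7.23, 7.2 and 7.03 in unirradiated mutant cells. Wild type cells had 7.36, 7.39, 7.38 and 7.5 after irradiation and 8.35, 8.49, 8.11 and 8.02 without it. Each change separated the groups it compared. Rspo2 differed between genotypes by -0.8 in irradiated cells (SE 0.12, adjusted p = 0.0006) and by -1.01 in unirradiated cells (SE 0.12, adjusted p = 6.57e-05). It fell after irradiation by 0.62 in mutant cells (SE 0.12, adjusted p = 0.00455) and by 0.83 in wild type cells (SE 0.12, adjusted p = 0.000424). Lgr5 and Rspo2 were thus called in opposite directions between genotypes, Lgr5 higher and Rspo2 lower in mutant cells.

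Among Wnt ligands, 10 of 19 passed the filter. Wnt9a rose after irradiation, with log2 values of 6.69, 7.29, 6.53 and 6.63 in irradiated against 5.09, 4.82, 5.31 and 5.38 in unirradiated mutant cells. The rise was 1.63 in mutant cells (SE 0.2, adjusted p = 0.000754) and 1.74 in wild type cells (SE 0.2, adjusted p = 0.000362), and the groups did not overlap. Wnt4 was higher in mutant cells, at 6.89, 7.34, 6.56 and 6.59 after irradiation against 5.35, 5.69, 5.39 and 5.48 in irradiated wild type cells. The genotypes did not overlap in either state. That difference was 1.37 in irradiated cells (SE 0.17, adjusted p = 0.000145) and 1.42 in unirradiated cells (SE 0.17, adjusted p = 0.000101). Wnt4 also rose after irradiation, by 0.43 averaged over genotypes (adjusted p = 0.0282). The rise was 0.41 in mutant cells (adjusted p = 0.227; adjusted p = 0.0186 with the replicate block) and 0.46 in wild type cells (adjusted p = 0.188; adjusted p = 0.0107 with the block). Wnt5a, a ligand best known for signalling without beta-catenin, was higher in unirradiated mutant cells by 0.74 (adjusted p = 0.0378). Averaged over irradiation, Wnt5a was higher in mutant cells by 0.6 (adjusted p = 0.00737).

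Of 17 other receptors and R-spondin genes that passed, the Frizzled receptor Fzd6 was higher in mutant cells by 0.59 in irradiated cells (adjusted p = 0.0123) and by 0.57 in unirradiated cells (adjusted p = 0.0156). Averaged over genotypes, Fzd6 fell after irradiation by 0.39 (adjusted p = 0.00802), and Fzd7 fell by 0.3 (adjusted p = 0.0193). Ptk7, a Wnt coreceptor, rose by 0.34 (adjusted p = 0.0148). Both Frizzled genes moved in the direction of Fzd2, and Ptk7 was also higher in mutant cells, by 0.4 averaged (adjusted p = 0.00644). Of the 9 other secreted or membrane modulators that passed, Gpc3, a glypican, was higher in mutant cells by 0.65 averaged (adjusted p = 0.000246). The Gpc3 difference was 0.81 in irradiated cells (adjusted p = 0.00174) and 0.49 in unirradiated cells (adjusted p = 0.0507; adjusted p = 0.0165 with the replicate block). Apcdd1 fell after irradiation by 0.28 averaged over genotypes (adjusted p = 0.0321).

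Inside the cell, 24 of 28 pathway genes passed. Tle1, a corepressor that binds TCF/LEF factors, was higher in mutant cells by 0.61 in irradiated (adjusted p = 0.0195) and 0.85 in unirradiated cells (adjusted p = 0.0015). Tle3, another member of that family, fell after irradiation by 0.36 in mutant cells (adjusted p = 0.0329) and by 0.37 in wild type cells (adjusted p = 0.0338). Tnks2, a tankyrase that promotes the destruction of axin proteins, rose by 0.31 in mutant cells (adjusted p = 0.00751) and by 0.4 in wild type cells (adjusted p = 0.00122). Smaller averaged changes were called for Pygo2 (0.18 after irradiation) and for Tle3 and Tcf7l1 (0.23 and 0.17 in mutant cells). Of the 13 Wnt target genes that passed, Fosl1 rose after irradiation by 0.68 in mutant cells and 0.51 in wild type cells, and Twist1 fell by 0.44 and 0.55. Ephb3 was higher in mutant cells by 0.48 in irradiated and 0.53 in unirradiated cells. Irradiation called 1 of the 13 target genes higher and 1 lower in each genotype. Of all probe sets it called 1.65% higher and 1.02% lower in mutant cells, and 1.47% and 0.834% in wild type cells. Fosl1 was lower in mutant cells by 0.25 averaged (adjusted p = 0.0195). Leaving out any 1 of 4 to 7 extracts ended the Tle3 calls given above and that of Wnt5a in unirradiated cells (adjusted p up to 0.121). Wnt4 lost its call for averaged irradiation in this way too. The same held for the calls of Tle1 and Ephb3 in irradiated cells. Leaving out any 1 of 10 to 12 ended those of Apcdd1, Pygo2, Tcf7l1 and, in mutant cells, Twist1 (adjusted p up to 0.118). Leaving out mutant replicate 2 or wild type replicate 2 or 4 ended that of Fzd6 in unirradiated cells (adjusted p up to 0.0517).

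**Figure D5:**
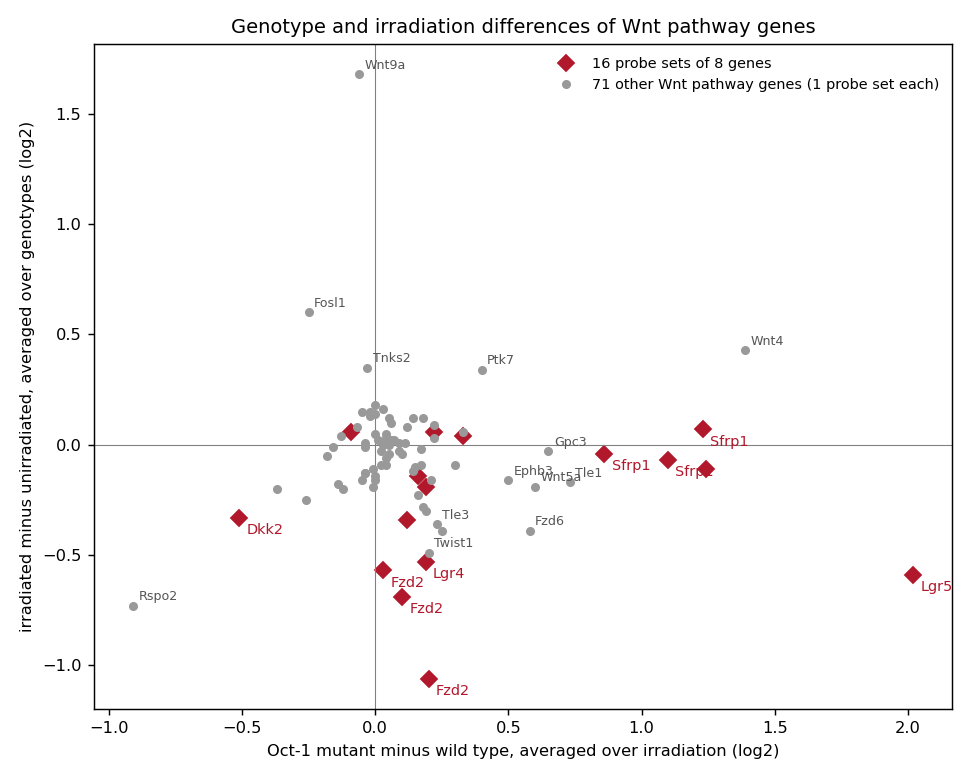
Averaged genotype difference (horizontal axis, Oct-1 mutant minus wild type, log2) against averaged irradiation difference (vertical axis, irradiated minus unirradiated, log2). Red diamonds are the 16 probe sets of 8 genes, some labelled, and grey points the other 71 pathway genes, the larger called ones labelled. Lgr5 lies farthest right at 2.02, Fzd2 lowest at -1.06, Wnt9a highest at 1.68, and Rspo2 farthest left at -0.91.

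Probe sets with the most similar profiles were ranked by Pearson correlation over the 16 arrays of 1 type, with the mean of each number run removed. These values describe arrays that share 4 groups and many changes. Lgr5 was closest to Lima1 (r = 0.97), Rgs4 (0.97) and Igf1 (0.96). Sfrp1 1448395_at was closest to Timp3, Igfbp3 and Ccn3 (0.98 each), and on array B Igfbp3 (0.97) was again among the closest to Sfrp1 1428136_at. Fzd2 1418534_at was closest to Tbx15 (0.97), Aurka (0.96) and Cdkn2d (0.96). Lgr4 was closest to Pcdh19 (0.93), Dcun1d4 (0.92) and Fgf7 (0.91). Dkk2 was closest to Foxp1 (0.93), Hoxa9 (0.92) and Rspo2 (0.91), so that a pathway gene was the third of 12526 probe sets compared. Dkk3 1448669_at was closest to the pathway gene Gpc3 (0.92). Sfrp2 had no profile closer than 0.81, that of Igfbp4, once the number runs were removed.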

How the data were processed

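Total RNA of 16 extracts was measured on 2 array types. The authors deposited log2 values, 1 for each probe set and array; the log base was read from their range, and the sources used here do not name the method. Probe sets were named through the platform annotation, with symbols updated by gene identifier. The 64 control probe sets of each array were left out, and a filter on the mean (40th percentile) kept 13576 probe sets of array A, where the limit was 4.97, and 13507 of array B, where it was 3.36. limma 3.58.1 (R 4.3.3) was run on each array type by itself, with a mean per group and a variance trend, after it had been tested on simulated data. Adjusted p-values (Benjamini-Hochberg) were computed within array type and comparison. There were 7 comparisons: irradiation in either genotype and its difference between them, genotype in either irradiation state, and both effects averaged. Arrays have no depth, and 4 per group limit the precision. Alternatives were other filters, quantile normalization, a fit without the variance trend, blocks, number runs, only the groups compared, and each extract left out. The replicate number was used as a block in an alternative fit, though the labels do not say that it pairs samples. Deviations of every same-numbered pair correlated above 0.1, at 0.32 to 0.72 for array A and 0.24 to 0.6 for array B. Samples of the same number run with other numbers correlated almost as much (0.24 to 0.71 and 0.19 to 0.58), so this check does not separate the number from the run. Summaries used Python 3.11.15. The members and lists were chosen with earlier results of these data known. Named were all members, called genes of 5 Wnt lists (up to 6 a list, else the 4 of smallest adjusted p) and the closest profiles. RefSeq promoters (GRCm38.p6) supplied sequences.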

Additional observations from a re-analysis of the deposited data

Results flagged for a closer look

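Of 80 groups of 4 samples, 20 probe sets in 4 groups, 2 held a sample far from the other 3, and chance flags about 1 group in 20. Among irradiated mutant samples, the lowest Sfrp1 1460187_at value was 7.07, with the other 3 between 7.18 and 7.2. For Axin2 1421341_at, below the filter, the highest irradiated mutant value was 2.39, with the other 3 between 2.17 and 2.21.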

How the results depend on the processing

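No called difference of these genes changed direction under the alternatives run. Within the second number run alone, irradiation called 2 of the 16 probe sets in mutant cells and 2 in wild type cells, against 4 each in the full fit. This fit has 2 samples a group. In this section, shares of all probe sets are given only with and without the replicate block. The other counts here therefore cannot be set against such shares. With a filter at the 60th percentile, genotype averaged over irradiation called 4, since fewer probe sets passed. With the replicate block, the other Wnt pathway genes called numbered 12 for irradiation in mutant cells, 13 for irradiation in wild type cells, 12 for genotype in unirradiated cells and 20 for genotype averaged, where the block called 7.15%, 6.11%, 6.42% and 13.9% of all probe sets. Without the block these shares were 2.67%, 2.31%, 2.16% and 6.25%. With no filter 3 pathway genes were called for irradiation in mutant cells. The cause was not tested. Leaving out 1 extract gave 4 to 5 calls of 16 for irradiation in mutant cells, 4 to 5 in wild type cells, 5 to 6 averaged, 5 to 6 for genotype in irradiated cells, 4 to 5 in unirradiated cells, 7 to 8 averaged and 0 to 0 for the difference of irradiation effects. Quantile normalization moved the averaged Lgr4 genotype difference to 0.26 (adjusted p = 0.0176), and the fit without a variance trend gave it an adjusted p of 0.0479. The replicate block added 8 calls and ended 0 of 30 among single probe sets.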
